A study of Homo sapiens with 6 samples.

Results

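The JAK-STAT5 signaling and feedback genes described here are the kinases JAK1 and JAK2, the transcription factors STAT3, STAT5A and STAT5B, and 5 genes that STAT5 is known to switch on, namely the inhibitors SOCS1, SOCS2 and CISH and the kinases PIM1 and PIM2. They were chosen by symbol, with earlier results of these data known. All 10 had a row among the 32364 genes of the expression table. The cells were Kasumi-1, an established acute myeloid leukemia line with the t(8;21) fusion of RUNX1 and RUNX1T1. Control cells received DMSO, the solvent, at the same concentration. The other cells received I13, a histone deacetylase inhibitor that contains indole-3-butyric acid, at 0.5 µM over an incubation of 48 h. There were 3 libraries in each group. All cells came from a single line. The study describes its sequencing figure as standing for independent experiments, while the labels do not say which culture a library came from. The p-values measure only the spread between these libraries, which may be technical in part.

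In blood-forming cells, cytokine receptors hold JAK kinases on their inner side. A bound cytokine activates the kinases, which phosphorylate STAT proteins, and these enter the nucleus as dimers and bind DNA. STAT5 is the main STAT for several growth factors of myeloid cells. CISH and the SOCS genes are early STAT5 targets whose proteins damp the same receptors, so that their mRNA is often read as a sign of pathway output. PIM kinases are further targets that promote survival. The comparison of I13 with control asks whether the mRNA of these genes differed between the groups after the incubation.

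None of the 9 members tested in the reported fit differed between I13 and control beyond the spread of the libraries. The log2 fold changes ran from −0.10 to 0.012, and 8 were below 0 and 1 above it, with a median of −0.041 against 0.0058 over all genes tested. By limma, no member had an unadjusted p under 0.05, where 5.14% of all genes tested had one, and the lowest was 0.222. At an adjusted p under 0.05, 0 members and 0% of all genes were called. The smallest adjusted p of a member was 0.983. The 3 values of each group overlapped for all 9 tested members. Over all genes tested, 9.52% had groups that did not overlap, so a count of 0 among so few members says little. A p that misses the threshold does not show equal levels, but the 95% intervals bound the difference. For all 9 tested members they lay inside a log2 fold change of 0.58 in either direction, and the widest reached from a fold of 0.736 to a fold of 1.29.

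**Figure D1:**
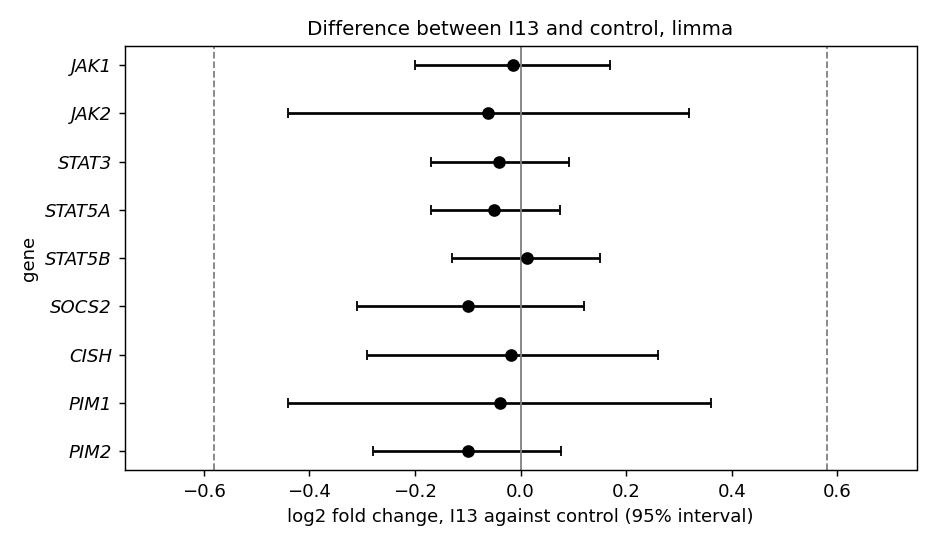
The x axis gives the log2 fold change of I13 against control with its 95% interval from limma, and each line is 1 of the 9 tested genes. Every interval spans 0 and lies between the dashed lines at a log2 fold change of 0.58 in either direction, with JAK2 and PIM1 the widest.

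The libraries held between 15281052 and 17221345 fragments, recovered from the deposited values. Control replicate 3 and I13 replicate 2 stood apart from the other 4 libraries on the first principal component, which held 43.3% of the variance over 4133 genes, so results that follow this pair are given with and without it. All 9 markers of a Kasumi-1 myeloblast, among them MPO, KIT, CD34, RUNX1 and RUNX1T1, had a mean of at least 1 FPKM, and they summed to 18200 to 19200 FPKM in control and 16100 to 18800 in I13 libraries. FPKM counts the fragments of a gene per kilobase of its exons, scaled to the mapped fragments of the library. Of the markers of other cells, the T cell genes summed to 0.333 to 0.438 FPKM in control and 0.179 to 0.207 in I13 libraries, with 0 of 4 at a mean of 1 or more and CD3G at 0. The B cell genes summed to 1.93 to 2.56 and 2.8 to 3.48 FPKM, with only CD79A of the 3 in the table at a mean of 1 or more. Of the 2 epithelial genes in the table EPCAM had a mean of at least 1, and their sum was 20.8 to 26.6 FPKM in control and 22.2 to 26.2 in I13 libraries. Of the 3 megakaryocyte genes GP1BA had one, with sums of 1.13 to 2.03 and 1.27 to 1.6 FPKM and PPBP at 0. The part of these in the results was not tested. In bulk RNA, a smaller share of cells with a transcript and less of it per cell cannot be told apart.

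The receptor-bound kinases come first. JAK1 (ENSG00000162434, chromosome 1, 64833229 to 64966504, minus strand, GRCh38 by GENCODE release 29, as for all genes here) serves receptors of the interleukin-6, interleukin-2 and interferon families. It was at 12.2, 11.2 and 11.6 FPKM in control replicates 1, 2 and 3 and at 12.1, 10.4 and 12.2 FPKM in I13 replicates 1, 2 and 3. The highest values of the groups were equal at 3 digits, and the lowest of all was an I13 library. The means were 11.7 ± 0.468 and 11.6 ± 1.02 FPKM (SD, n = 3 each), with a log2 fold change of −0.014 (95% interval −0.20 to 0.17, limma adjusted p = 1.0). It was −0.16 between the libraries of the pair and 0.06 in the other 4 libraries.

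JAK2 (ENSG00000096968, chromosome 9, 4984390 to 5128183, plus strand) serves the receptors of erythropoietin, thrombopoietin, GM-CSF and interleukin-3, all of which signal through STAT5. It was at 3.12, 3.32 and 2.82 FPKM in control and at 2.6, 2.6 and 3.79 FPKM in I13 libraries. I13 replicates 1 and 2 lay under every control library and I13 replicate 3 above every control library. The I13 values thus varied more, with a coefficient of variation of 22.9% against 8.14% in control, where counting error alone would give 5.69%. The log2 fold change was −0.061 (95% interval −0.44 to 0.32, limma adjusted p = 1.0), −0.11 between the libraries of the pair and −0.036 in the other 4.

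Among the STAT factors, STAT5A (ENSG00000126561, chromosome 17, 42287547 to 42311943, plus strand) was the highest of the 10 members. Its values were 49.6, 49.7 and 52.3 FPKM in control and 48.0, 51.6 and 46.9 FPKM in I13 libraries. The highest library was control replicate 3 and the next I13 replicate 2, which are the pair that stood apart. The means were 50.5 ± 1.56 and 48.8 ± 2.48 FPKM, a log2 fold change of −0.050 (SE 0.053, 95% interval −0.17 to 0.075, limma adjusted p = 0.995). It was −0.02 between the libraries of the pair and −0.065 in the other 4 libraries. With 4123 to 4990 fragments in a library it was also the member measured with the most fragments.

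STAT5B (ENSG00000173757, chromosome 17, 42199168 to 42276707, minus strand), the close paralog of STAT5A, was at 25.6, 23.3 and 24.7 FPKM in control and at 25.7, 25.1 and 23.6 FPKM in I13 libraries. The groups lay on the same range. Its log2 fold change of 0.012 was the only one above 0 (SE 0.058, 95% interval −0.13 to 0.15, limma adjusted p = 1.0). STAT3 (ENSG00000168610, chromosome 17, 42313324 to 42388568, minus strand) is the main STAT of the interleukin-6 and G-CSF receptors. It was at 20.5, 21.6 and 20.1 FPKM in control and at 20.0, 21.2 and 19.3 FPKM in I13 libraries, with a log2 fold change of −0.041 (SE 0.056, 95% interval −0.17 to 0.092, limma adjusted p = 1.0). It was 0.075 between the libraries of the pair and −0.10 in the other 4 libraries, so its sign differed between them.

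These 3 STAT genes are neighbours on chromosome 17. STAT5B and STAT5A lie 10839 bases apart and STAT5A and STAT3 lie 1380 bases apart, within 189401 bases in all. STAT5A was higher than STAT5B in 6 of 6 libraries, and the ratio of their FPKM ran from 1.87 in I13 replicate 1 to 2.14 in control replicate 2. The log2 ratio, in which any scaling of a library cancels, was 1.04 ± 0.08 in control and 0.98 ± 0.07 in I13 libraries (SD, n = 3 each). The difference of −0.063 had p = 0.4 by a two-sided exact permutation test, whose smallest possible p is 0.1.

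STAT5A and STAT5B share sequence, and fragments inside it could have been given to either gene or counted for neither. The ratio of STAT5A to STAT5B carries this limit. Of all runs of 100 bases in the annotated transcripts, 6.14% of those in STAT5A and 5.67% of those in STAT5B occur in both. The longest identical run has 429 bases, all of them coding. It spans exons 7 to 10 of STAT5A-201 (chr17:42299764-42301277, plus strand) and exons 6 to 9 of STAT5B-201 (chr17:42218328-42219829, minus strand), in GRCh38. Its first 120 bases are printed, read 5′ to 3′ in either gene, and the identity goes on beyond them.
STAT5A and STAT5B: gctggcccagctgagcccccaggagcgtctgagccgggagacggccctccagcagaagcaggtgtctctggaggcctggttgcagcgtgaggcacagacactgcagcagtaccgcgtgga

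The feedback inhibitors had the lowest FPKM of the members together with JAK2. CISH (ENSG00000114737, chromosome 3, 50606490 to 50611831, minus strand) encodes an SH2 protein that binds the receptors STAT5 is activated from, and it is a classical STAT5 target. Its promoter is shown because it carried more copies of the STAT5 consensus than that of any other member with a window. In the RefSeq window from 250 bases before to 50 after the start site it had 4 matches of TTCNNNGAA, which reads the same on both strands. At least 1 match was found in 7.66% of all 35116 windows of this length and at least 4 in 7 of them (0.0199%). The other 8 members with a window, which are all but SOCS2, had none. The related motif with a spacer that is 1 base longer was found in a STAT5A window, and in 6.44% of all windows. A match is a description of the letters and not of binding, which was not measured. The pairs of matches are printed with the consensus in capitals, 5′ to 3′ on the strand of CISH (GRCh38.p14).
CISH, bases −246 to −217 from the start site, chr3:50611991-50612020, minus strand: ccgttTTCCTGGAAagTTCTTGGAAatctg
CISH, bases −132 to −103 from the start site, chr3:50611877-50611906, minus strand: cggTTCTAGGAAgacgctgcTTCCGGGAAg
The first of these runs also lies in an exon of MAPKAPK3, a gene read in the other direction, and the second lies in no exon of either gene.

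**Figure D2:**
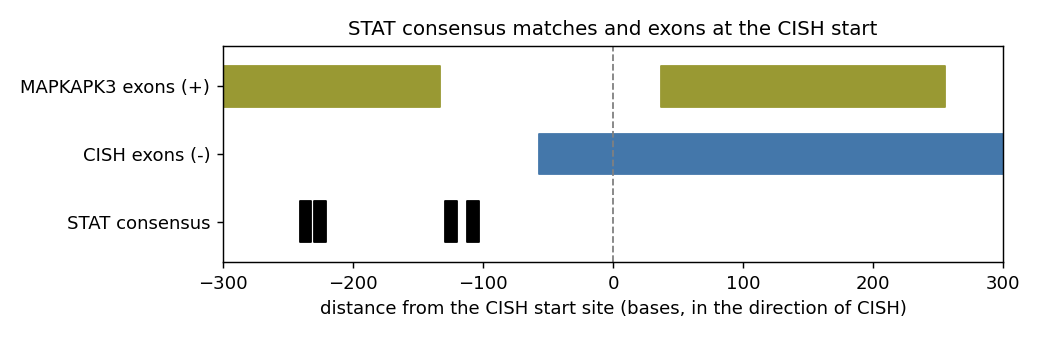
The x axis gives the distance from the CISH start site in bases, negative before the start, and the rows show exons of MAPKAPK3 on the opposite strand, exons of CISH and matches of the consensus. The 4 matches form 2 groups before the start, and an exon of each gene covers the same bases after it.

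CISH was at 3.74, 4.47 and 4.82 FPKM in control and at 4.02, 4.69 and 4.11 FPKM in I13 libraries. Control replicate 3 and I13 replicate 2 were the highest of the 6, and the lowest was a control library. The means were 4.34 ± 0.551 and 4.27 ± 0.365 FPKM, a log2 fold change of −0.018 (SE 0.12, 95% interval −0.29 to 0.26, limma adjusted p = 1.0). It was −0.038 between the libraries of the pair and −0.0082 in the other 4 libraries. CISH shares 218 of its 5112 exon bases (4.26%) with MAPKAPK3, a kinase gene on the opposite strand at 78.6 to 91.1 FPKM. CISH had 321 to 408 fragments in a library, and MAPKAPK3 had 4710 to 5918 over 3921 exon bases. If counting ignored the strand, the shared bases could hold far more than 4.26% of the CISH fragments. MAPKAPK3 was also highest in the pair, at 91.1 and 86.3 FPKM. Its part in the level, fold change and pair pattern of CISH was not tested. The kit kept the strand, but the strand setting of the counting is not given in the sources used here, so the share of CISH fragments that belongs to MAPKAPK3 is not known.

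SOCS2 (ENSG00000120833, chromosome 12, 93569814 to 93583487, plus strand), which restrains growth hormone and other STAT5 receptors, was at 4.64, 5.29 and 4.61 FPKM in control. It was at 4.53, 4.23 and 4.82 FPKM in I13 libraries. The highest library was a control and the lowest an I13 library, but I13 replicate 3 exceeded 2 of the 3 controls. The means were 4.85 ± 0.384 and 4.53 ± 0.295 FPKM, a log2 fold change of −0.10 (SE 0.091, 95% interval −0.31 to 0.12, limma adjusted p = 0.988). It shares 277 of its 6776 exon bases (4.09%) with the antisense gene SOCS2-AS1, at 0.905 to 1.66 FPKM. The log2 ratio of SOCS2 to CISH was 0.16 ± 0.2 in control and 0.085 ± 0.2 in I13 libraries, a difference of −0.079 (two-sided exact permutation p = 0.5).

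SOCS1 (ENSG00000185338, chromosome 16, 11254405 to 11256200, minus strand), an inhibitor of the JAK kinases themselves that interferon induces, was not detected in 5 libraries. It was listed at 0 in all 3 control libraries and in I13 replicates 1 and 2, and at 0.107 FPKM in I13 replicate 3. That value equals 2 fragments if the exon length used was 1225 bases, which is an inference from the value, since the annotated 1796 bases give no whole number. At that length the 3 fragments that a count of 0 allows come to between 0.142 and 0.16 FPKM in a library, counting error only. Both groups were under this limit, so no fold change is given, and the filter left the gene out of the reported fit. It entered only the alternative with no filter, where no member had an unadjusted limma p under 0.05. SOCS1 lies within the span of RMI2, a gene on the opposite strand at 1.29 to 2.15 FPKM. The part of RMI2 or of the annotation in these zeros was not tested.

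The PIM genes are the survival targets among the members. PIM1 (ENSG00000137193, chromosome 6, 37170203 to 37175426, plus strand) was at 5.6, 6.4 and 8.58 FPKM in control and at 5.59, 7.31 and 6.92 FPKM in I13 libraries. Control replicate 3 was far above the other controls, and I13 replicate 2 was the second highest of the 6. PIM1 had the widest spread of the members in control, with a coefficient of variation of 22.5% where counting error alone would give 5.5%. The means were 6.86 ± 1.54 and 6.61 ± 0.902 FPKM, a log2 fold change of −0.039 (SE 0.17, 95% interval −0.44 to 0.36, limma adjusted p = 1.0). It was −0.23 between the libraries of the pair and 0.055 in the other 4.

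PIM2 (ENSG00000102096, chromosome X, 48913182 to 48919024, minus strand) was at 8.24, 9.24 and 9.73 FPKM in control and at 8.53, 8.55 and 8.2 FPKM in I13 libraries. Control replicates 2 and 3 lay above every I13 library, while control replicate 1 lay among them. The means were 9.07 ± 0.757 and 8.43 ± 0.197 FPKM, a log2 fold change of −0.10 (SE 0.076, 95% interval −0.28 to 0.077, limma adjusted p = 0.983). It was −0.18 between the libraries of the pair and −0.061 in the other 4 libraries. Without control replicate 1 it was −0.17 with an unadjusted limma p of 0.0355, the only member and library for which leaving 1 out gave a p under 0.05. The log2 ratio of PIM1 to PIM2 was −0.42 ± 0.21 in control and −0.36 ± 0.22 in I13 libraries (two-sided exact permutation p = 1.0).

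**Figure D3:**
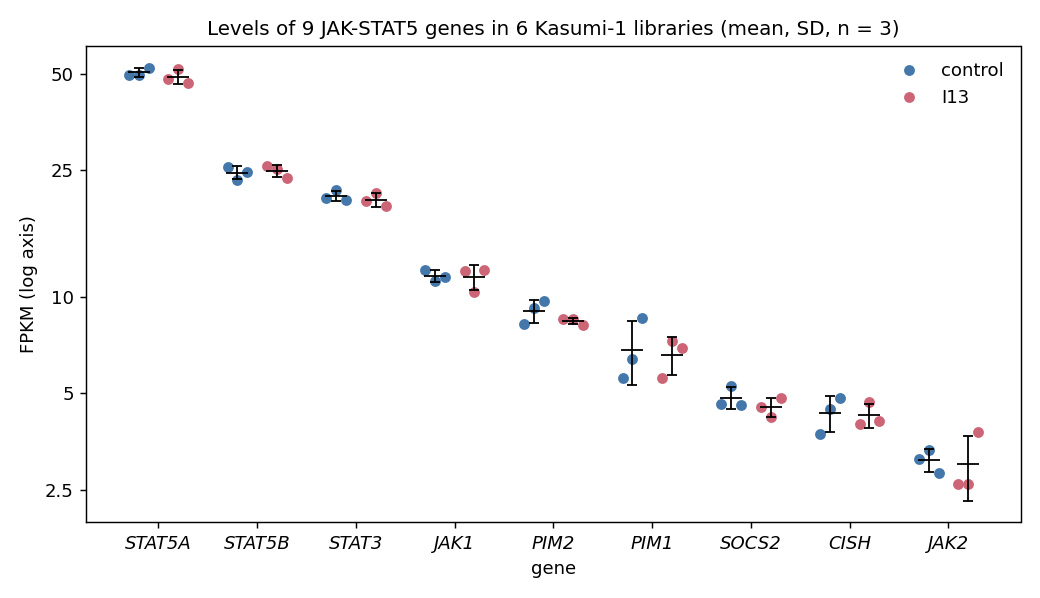
The y axis gives FPKM on a log scale for the 9 members above 0 in every library, with 1 point per library, blue for control and red for I13, and the mean and SD of each group (n = 3) in black. The genes are ordered by mean level from STAT5A at 49.7 to JAK2 at 3.04 FPKM, and the groups of every gene overlap.

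The order of the levels by FPKM was the same by the means of both groups. FPKM divides by the length of all annotated exons of a gene, which is 5112 bases for CISH. The transcripts made in these cells can be shorter, so the order between genes carries this limit. STAT5A had a mean of 49.7 FPKM over the 6 libraries, followed by STAT5B at 24.7, STAT3 at 20.5, JAK1 at 11.6, PIM2 at 8.75, PIM1 at 6.73, SOCS2 at 4.69, CISH at 4.31 and JAK2 at 3.04 FPKM. The STAT members were thus all above JAK1 and JAK2, and PIM2, PIM1, SOCS2 and CISH lay between JAK1 and JAK2. SOCS2 and CISH overlapped in both groups and cannot be ordered, with SOCS2 the higher in 4 of 6 libraries. PIM2 and PIM1 overlapped in control only, and PIM2 was higher in 6 of 6 libraries. Every other neighbour in this order was separate in both groups. JAK1 was 3.23 to 4.67 times as high as JAK2, and the log2 ratio differed by 0.049 between the groups (two-sided exact permutation p = 0.9).

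CISH, PIM1 and STAT5A were highest in the pair of libraries that stood apart, which holds 1 library of each group. Of the 9 tested members, 3 (33.3%) had both libraries of the pair above the other 4, and these were STAT5A, CISH and PIM1, while 0 had both below. Over all 18726 genes tested, 1936 (10.3%) lay above and 3182 below in the same sense. PIM1 had a mean of 7.94 FPKM in the pair and 6.13 in the other 4 libraries, CISH 4.75 and 4.08, and STAT5A 52.0 and 48.5. Since the pair was found on these data, this is a description. The CISH values also carry the limit of the exon bases shared with MAPKAPK3. What the pair shares is not given by the labels.

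**Figure D4:**
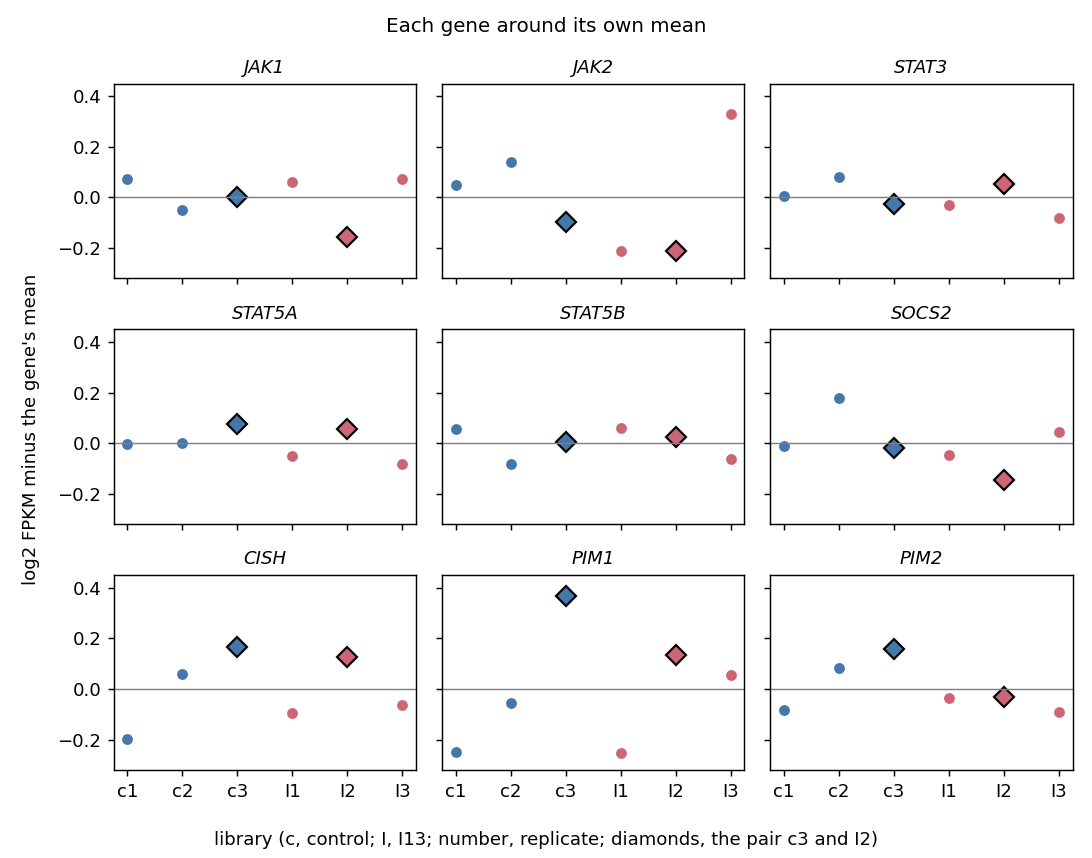
Each panel shows 1 gene, with the y axis giving log2 FPKM minus the gene's mean over the 6 libraries and the x axis the libraries, blue for control and red for I13. The diamonds, control replicate 3 and I13 replicate 2, are the 2 highest points for STAT5A, CISH and PIM1 and are not so for the others.

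By Pearson's r over the 6 libraries, among 11517 genes with a mean of at least 1 FPKM, the genes most like CISH were LIMD1 (r = 0.998), ATAD3A (r = 0.997) and BRD3 (r = 0.993). Among those most like PIM1 were GNG7 (r = 0.994) and HS1BP3 (r = 0.992). Those most like SOCS2 were INTS6L (r = 0.984), SLC15A2 (r = 0.984) and RAB31 (r = 0.982). With 6 points many genes reach an r above 0.9, as 180 genes did with CISH, 243 with PIM1 and 86 with SOCS2. The points share their libraries, and the likeness is a description only. For CISH it also carries the limit of the overlap with MAPKAPK3.

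Outside the members, 77 further genes of the pathway were listed by role, of which 73 were in the table and 54 were tested. Of these, 6 (11.1%) had an unadjusted limma p under 0.05, 2 higher and 4 lower in I13, against 5.14% of all genes. The lists were chosen with earlier results of these data known, so the shares within them are a description only. The 6 became 3 without control replicate 2 or I13 replicate 1, 12 without control replicate 3, and 10 in the 4 libraries without the pair. Over all 18726 genes, 963 in the reported fit became 787, 840, 1202 and 1607 in the same order, so the counts moved in the same direction. None of the 54 passed the adjusted p, and their median log2 fold change was −0.02. Groups did not overlap for 8 (14.8%) against 9.52% of all genes. Among the other JAK and STAT genes, 0 of 5 tested had an unadjusted p under 0.05, and the highest, TYK2, was at 19.5 ± 2.49 FPKM in control and 20.1 ± 0.801 in I13 libraries.

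Of the other negative regulators 1 of 17 had an unadjusted p under 0.05. This was SOCS3 (ENSG00000184557), the STAT3-induced inhibitor of the interleukin-6 and G-CSF receptors. It was at 1.61, 1.77 and 2.05 FPKM in control and at 1.19, 1.36 and 1.29 FPKM in I13 libraries. All 3 I13 libraries lay under all 3 controls, with 52 to 93 fragments in a library. The log2 fold change was −0.46 (SE 0.14, 95% interval −0.79 to −0.14, limma adjusted p = 0.875). It was −0.56 within the pair and −0.41 in the other 4 libraries. The highest gene of this list was PTPN11, the phosphatase SHP2, at 35.4 ± 1.63 and 35.1 ± 3.79 FPKM.

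Of the receptors 2 of 19 tested had an unadjusted p under 0.05. CSF3R (ENSG00000119535), the G-CSF receptor of the neutrophil lineage, was at 91.8, 91.0 and 91.0 FPKM in control and at 71.4, 78.4 and 78.2 FPKM in I13 libraries. The controls had an SD of 0.491 FPKM, and all 3 I13 libraries lay under all 3 controls. The log2 fold change was −0.27 (SE 0.050, 95% interval −0.38 to −0.15, limma adjusted p = 0.517), and it rests on 9581 to 13328 fragments in a library. CSF2RA, the alpha chain of the GM-CSF receptor, was at 1.08 ± 0.0893 in control and 0.805 ± 0.0616 FPKM in I13 libraries, with a log2 fold change of −0.38 (SE 0.16, limma adjusted p = 0.947). It was −0.14 within the pair and −0.50 in the other 4 libraries, and its unadjusted p was under 0.05 in only 9 of 18 alternatives. It lies in the region that the sex chromosomes share, and the copy its fragments come from was not determined. KIT, the stem cell factor receptor, was the highest receptor at 225 ± 12.2 and 216 ± 17.1 FPKM. Among the ligands, 2 of 13 genes present were tested and neither had an unadjusted p under 0.05, the higher being KITLG, which encodes stem cell factor, at 0.797 ± 0.0486 and 0.727 ± 0.141 FPKM.

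Of the 11 other STAT5 targets, all tested, 3 had an unadjusted p under 0.05, in both directions. CCND1, which encodes the G1 cyclin D1, was at 0.962, 1.3 and 0.887 FPKM in control and at 1.72, 1.56 and 1.54 FPKM in I13 libraries, a log2 fold change of 0.59 (SE 0.17, limma adjusted p = 0.875). It was 0.75 within the pair and 0.50 in the other 4 libraries, where its unadjusted p was no longer under 0.05. CCND1 had only 71 to 132 fragments in a library. BCL2, the survival gene, was at 6.28, 5.72 and 6.25 FPKM in control and at 7.84, 6.57 and 7.95 FPKM in I13 libraries, a log2 fold change of 0.28 (SE 0.093, limma adjusted p = 0.89). It was 0.069 within the pair and 0.39 in the other 4 libraries. Without control replicate 2 it was 0.24, without I13 replicate 1 it was 0.25 and without I13 replicate 3 it was 0.24, each with an unadjusted p no longer under 0.05. For CCND1 and BCL2 all I13 libraries lay above all controls. ID1, an inhibitor of helix-loop-helix factors, was at 30.4, 33.9 and 27.8 FPKM in control and at 22.7, 28.4 and 23.0 FPKM in I13 libraries, with a log2 fold change of −0.32 (SE 0.11, limma adjusted p = 0.901). Here the groups overlapped, and the change was 0.032 within the pair and −0.49 in the other 4 libraries. The highest target was MYC at 399 ± 34.4 and 411 ± 12.5 FPKM. With the recovered fragments in limma voom and a term for the pair, which was found on these data, CSF3R (adjusted p = 0.000819) and BCL2 (adjusted p = 0.0218) passed the adjusted threshold, as did 88 of all 13802 genes in that fit, and no member did. In voom without that term their adjusted p was 0.0965 and 0.41, and 5 genes of the table passed.

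**Figure D5:**
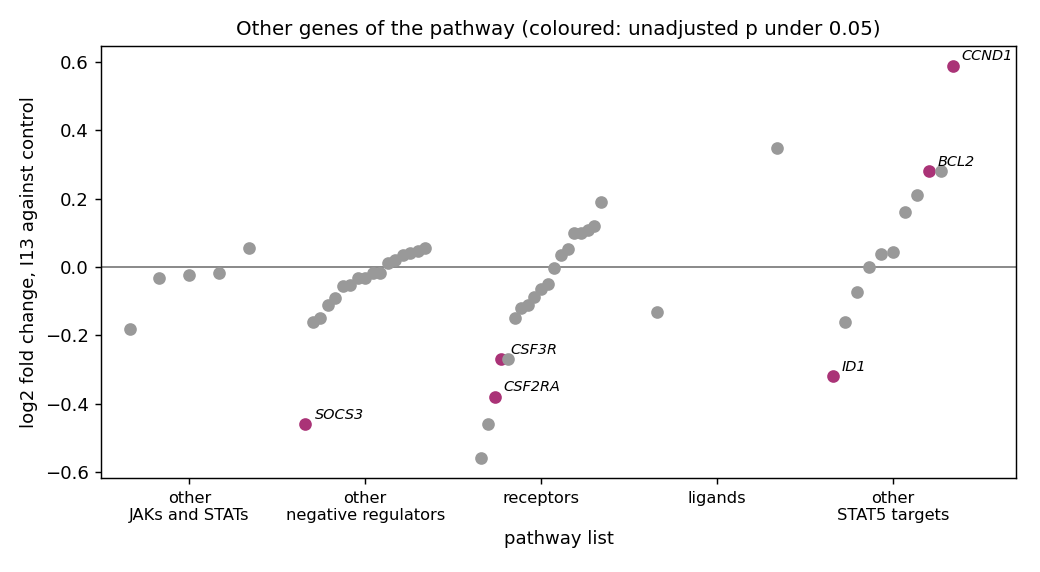
The y axis gives the log2 fold change of I13 against control for the 54 tested genes of 5 pathway lists, 1 point a gene, sorted within each list. The 6 coloured and named genes had an unadjusted limma p under 0.05, from SOCS3 at −0.46 to CCND1 at 0.59, and none passed the adjusted p.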

How the data were processed

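The authors deposited FPKM values for each gene and library, and the table was used without further scaling. Per the labels, stranded mRNA libraries were processed with Trimmomatic, HISAT2, Cufflinks and HTSeq on hg38, while neither the annotation nor the strand setting is given in the sources used here. Fragments were recovered with GENCODE release 29 exon lengths, and 25772 of 27002 genes (95.4%) came out whole in all libraries within 0.01. The 2 groups were compared two-sided by limma 3.58.1 (R 4.3.3) with a mean-variance trend. The model used log2 values after a pseudocount of 0.1 FPKM, and p-values were adjusted by Benjamini-Hochberg over the 18726 genes whose mean reached 0.1 FPKM. Fold changes on this scale understate those of low genes. The script was tested on simulated data with 200 genes changed 2-fold. At an adjusted p under 0.05 the reported fit called 129 of these 200 and 19 unchanged genes. Voom on fragments called 174 of the 197 that entered it and 8 unchanged genes. The simulated libraries held no pair that stood apart. Single ratios were compared by exact permutation in Python 3.11.15 with scipy 1.17.1. The members and lists were chosen with earlier results of these data known. The text names the members, in each pathway list the highest gene and those with an unadjusted p under 0.05, and the 3 genes most like SOCS2, CISH and PIM1. An item that this rule covers is not reported here. MAPKAPK3, SOCS2-AS1 and RMI2 were named for their overlap with members. IL2, IL3, IL10 and CSF2 of the ligand list were not analysed here. Promoters are from RefSeq, where 9 of 10 members matched. Alternatives were other pseudocounts, filters and scalings, limma with no trend or robust variances, voom on fragments, a term for the pair of libraries that stood apart, the replicate number as a block, and leaving out libraries.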

Additional observations from a re-analysis of the deposited data

How the results depend on the processing

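Over 19 alternatives to the reported fit, PIM2 without control replicate 1 (−0.17) was the only member value with an unadjusted p under 0.05, and no member passed an adjusted p. The count of members at an unadjusted p under 0.05 was 0 to 1 when each library was left out in turn. Over all 18726 genes the same count was 784 to 1295. The sign of small values moved. In the 4 libraries without the pair, JAK1 was at 0.06, PIM1 at 0.055 and PTPN11 at 0.036. With 1 library left out, the log2 fold change ran from −0.054 to 0.061 for JAK1, −0.24 to 0.028 for JAK2, −0.025 to 0.048 for STAT5B, −0.12 to 0.059 for CISH, −0.17 to 0.13 for PIM1, −0.17 to −0.05 for PIM2, −0.077 to −0.011 for STAT3, −0.091 to −0.021 for STAT5A, −0.14 to −0.032 for SOCS2, −0.066 to 0.075 for PTPN11, −0.11 to 0.004 for KIT and −0.00094 to 0.11 for MYC. MYC was at −0.019 after quantile normalization. With 1 library left out, the difference in log2 ratio between the groups ran from −0.077 to 0.19 for JAK1 to JAK2, −0.19 to 0.038 for SOCS2 to CISH, −0.0041 to 0.19 for PIM1 to PIM2 and −0.11 to −0.025 for STAT5A to STAT5B. The cause was not tested. STAT3, STAT5A, SOCS2 and PIM2 stayed below 0 under all 19.

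The count of pathway genes at an unadjusted p under 0.05 was 3 without control replicate 2 or I13 replicate 1. It was 12 without control replicate 3, and 10 in the 4 libraries without the pair. Over all 18726 genes the same fits gave 787, 840, 1202 and 1607. At an adjusted p the count of pathway genes was 2 with voom and the pair term and 0 under all other alternatives. SOCS3 and CSF3R kept an unadjusted p under 0.05 in all 19, CCND1 in 18, BCL2 in 16, ID1 in 14 and CSF2RA in 9 of 18. CCND1 (0.50) lost it in the 4 libraries without the pair. BCL2 lost it when I13 replicate 1 (0.25), I13 replicate 3 (0.24) or control replicate 2 (0.24) was left out. ID1 lost it when replicates 1 (−0.26) or 3 (−0.27) of I13 were left out in turn, and likewise replicates 1 (−0.32) or 2 (−0.24) of the control. In limma without a trend ID1 (−0.32) lost it as well. CSF2RA lost it when any 1 of the same 4 libraries was left out (−0.35), with no filter (−0.38), with the pair term (−0.38) and in voom without or with that term (−0.42). TYK2 gained it without control replicate 3 (0.16) and in the 4 libraries (0.14). Over all genes, 9 passed an adjusted p in limma without a trend, 5 in voom and 88 in voom with the pair term, against 0 as reported, where 963 had an unadjusted p under 0.05.

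With a replicate block, 0 members, 5 pathway genes and 862 of all 18726 genes had an unadjusted p under 0.05. CSF2RA no longer had one. The deviations of libraries numbered 1, 2 and 3 correlated between the groups at 0.32, −0.38 and −0.30, while control replicate 3 correlated at 0.51 with I13 replicate 2. Deviations were taken from the mean of each group of 3, so these values depend on each other. They cannot show whether the numbers pair the libraries. Depth limits SOCS1, where 0 fragments allow up to 0.142 to 0.16 FPKM, and SOCS3 and CSF2RA, each with under 100 fragments in a library. It also limits KITLG, with 63 to 86 fragments, and CCND1, with 71 to 132.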
